A study of Mus musculus with 6 samples.

Results

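The Notch receptors and their ligands are described here as 10 genes: the 4 receptors Notch1, Notch2, Notch3 and Notch4, and the 6 ligand genes Jag1, Jag2, Dll1, Dll3, Dll4 and Dlk1. They were taken by name out of 19937 genes measured on microarrays of mouse whole kidney, with 1 probe set per gene: of the probe sets that carry a single gene symbol, the brightest on average. All 10 were found, each on 1 such probe set, and no filter on low values was used, so all 10 entered the test. The study compared 3 Control kidneys from littermates labelled wild-type with the genotype normal with 3 NICD1 kidneys of the genotype Pax8rtTA TREICNotch1. In NICD1 mice the tetracycline transactivator rtTA is driven by Pax8 sequences, which are active in tubule epithelial cells, and the tetracycline-responsive TREICNotch1 transgene then makes the intracellular domain of Notch1, a form of the receptor that signals without a ligand. The labels give neither the inducer, its duration, nor the age or sex of the mice, and no group carries Pax8rtTA or TREICNotch1 alone. The comparison asks which receptor and ligand genes follow when Notch1 is activated in the tubule.

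Notch receptors are cell-surface proteins that are cut after they bind a ligand on a neighbouring cell. The freed intracellular domain enters the nucleus and joins the DNA-binding protein RBPJ to switch on genes of the Hes and Hey repressor families. Some Notch genes and ligands are themselves known targets of the pathway, Jag1 and Notch3 among them, so a signal in a cell can be passed on to its neighbours. In the developing kidney, Notch2 with the ligands Jag1 and Dll1 directs nephron precursors to a proximal tubule fate, while in the adult organ Notch4 and Dll4 are known from endothelium and Notch3 from vascular smooth muscle and pericytes.

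Values are log2 expression as deposited, so a difference of 1 is a 2-fold change. Over 28187 probe sets, arrays correlated at 0.991 to 0.993 within Control, at 0.986 to 0.990 within NICD1 and at 0.927 to 0.945 between groups, a description across probe sets, which are not replicates. Proximal tubule markers bore out the tissue label in Control, with a summed linear signal of 19735 to 20743, and all 10 fell in NICD1, to a sum of 1693 to 3284; 7 of 7 intercalated cell markers and 6 of 8 loop and distal tubule markers also fell, 1 of the latter rose. Of 8 macrophage markers 7 rose, of 8 fibroblast markers the 4 collagens rose, of 7 principal cell markers 2 rose and 2 fell, of 5 podocyte markers 1 rose and 3 fell, and of 6 T and B cell markers 2 rose and 1 fell. With each array centred on its median, 0 loop and distal tubule markers and 1 T and B cell marker were higher. These 2 counts were the same without Control replicate 3, NICD1 replicate 1 or NICD1 replicate 2. None of 4 sex-linked transcripts was called in limma (1 at an unadjusted p under 0.05). In whole-organ RNA, fewer cells of a type and less RNA per cell cannot be told apart, and the part that these shifts have in the results below was not tested. The labels do not state that each array is a separate mouse, so p-values measure the spread between these samples only.

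Jag1 and 3 of the 4 receptors rose in NICD1 kidneys, Dll1 fell, and the other 5 genes did not pass. In the linear model fitted with limma over all genes, with Benjamini-Hochberg adjustment and an adjusted p threshold of 0.05, 4 of 10 were higher and 1 was lower. The same fit called 32.7% of all genes, 17.8% as higher and 14.9% as lower, against which the counts of 4 and 1 of 10 are to be read. The 4 higher genes lay between 2.09-fold and 16.5-fold. The same 5 genes had no overlap between the 2 groups of arrays, 4 with NICD1 above and 1 with NICD1 below, as did 43.4% of all genes, 23.7% above and 19.7% below. Receptors had a median difference of 1.66 log2, or 1.06 without Notch1, whose value may hold transgene transcript, and ligands of -0.01, against 0.015 over all genes. Centring each array on its median shifted the median of all genes to -0.11 and the calls from 3551 higher and 2978 lower to 2594 and 3990 (54.4% against 39.4% higher), without ending or adding a call among the 10 genes.

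**Figure D1:**
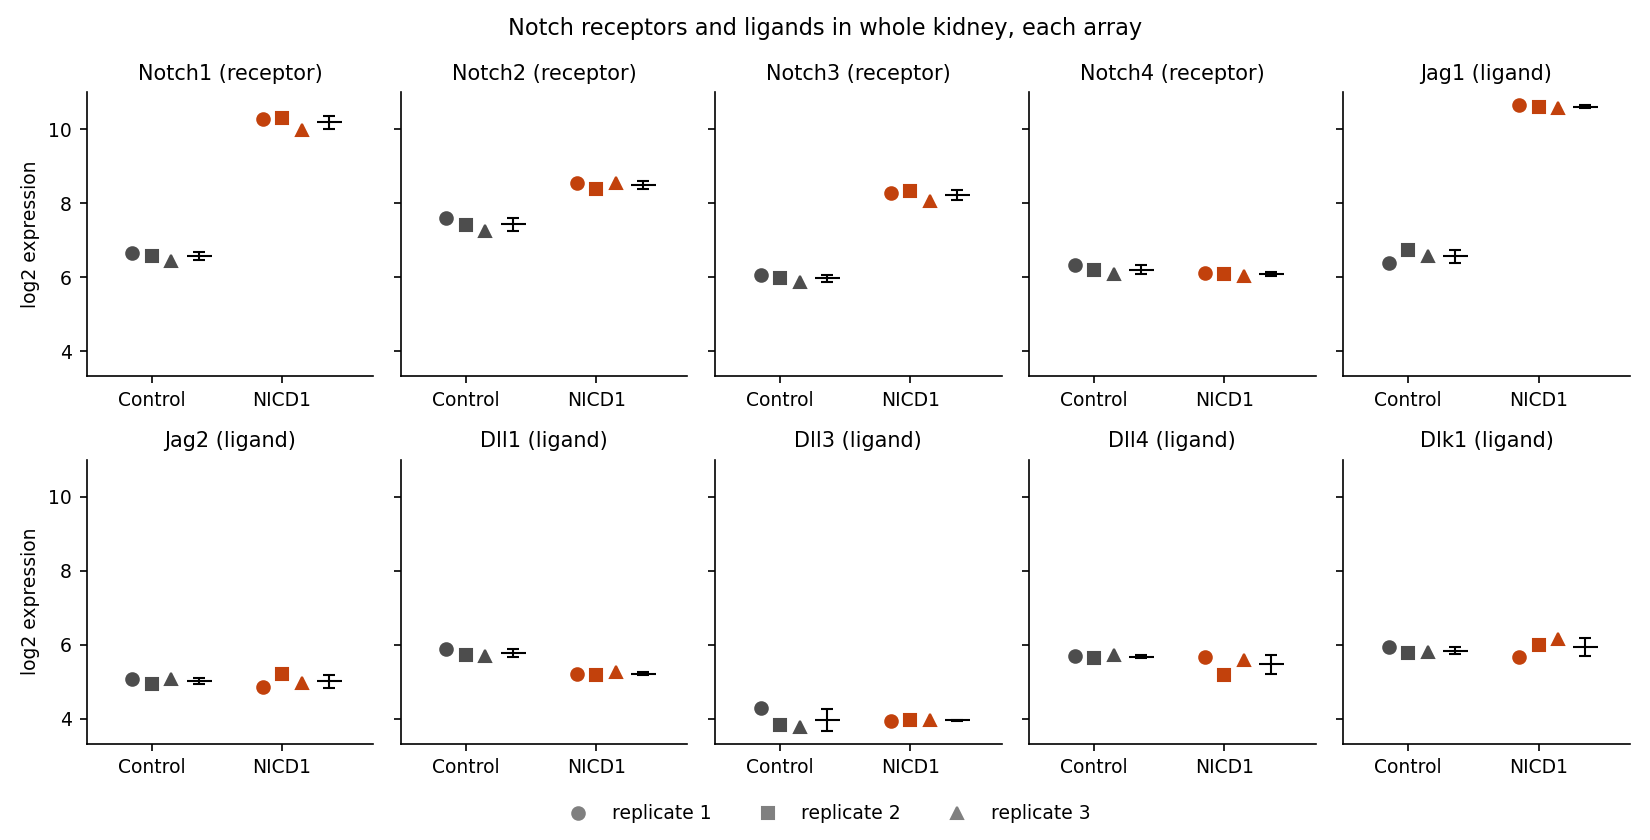
Log2 expression of each receptor and ligand gene on each array; every panel shows the 3 Control and 3 NICD1 arrays (symbols mark the replicate number) and, beside them, the mean with its SD. Notch1, Notch2, Notch3 and Jag1 stand above every Control array and Dll1 below, while Notch4, Jag2, Dll3, Dll4 and Dlk1 overlap.

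Among the receptors, Notch1 is the gene whose intracellular domain the transgene carries. It measured 6.65, 6.59 and 6.45 log2 in Control replicates 1 to 3 and 10.29, 10.30 and 9.99 in NICD1 replicates 1 to 3. All NICD1 arrays were far above all Control arrays, with the lowest NICD1 value 3.33 log2 over the highest Control value. The difference was 3.63 log2 (SE 0.12, limma adjusted p = 1.52e-07), a 12.4-fold rise. It checks the labels, but where the probes lie relative to the transgene is not stated, so transgene and endogenous transcript cannot be told apart.

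Notch3, a receptor with no transgene in these mice, showed the next largest receptor rise. Its values were 6.06, 5.98 and 5.88 in Control and 8.29, 8.32 and 8.06 in NICD1. The groups did not overlap, and NICD1 replicate 3 was the lowest of its group, as it was for Notch1. The rise was 2.25 log2 (SE 0.11, limma adjusted p = 1.33e-06), or 4.75-fold. Notch3 is known for its part in arterial smooth muscle and pericytes, and the 10 markers of these cells were set beside it. Of these, 4 rose, 0 fell and 6 did not pass, with a median difference of 0.26 log2. The call of Acta2 was lost without Control replicate 2, NICD1 replicate 1 or NICD1 replicate 2 (limma adjusted p = 0.0732, 0.0508 and 0.0563). Their summed signal on the linear scale ran from 841 to 1004 in Control and from 1074 to 1699 in NICD1. Acta2, Tagln and Pdgfrb rose by 0.94, 1.04 and 0.70 log2 and Mcam by 1.01. Myh11, the smooth muscle myosin, and Cnn1 differed by -0.41 and -0.27 (limma adjusted p = 0.174 and 0.0904). On NICD1 replicate 3, where that summed signal was 1074 and nearest to Control, Notch3 was 8.06, and without that array its difference was 2.33 log2. The part of these markers in the Notch3 rise was not tested.

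Notch2, the receptor tied to proximal tubule fate in development, rose least of the 3. It measured 7.61, 7.42 and 7.26 in Control and 8.55, 8.38 and 8.54 in NICD1, with 0.78 log2 between the nearest values of the groups. The difference was 1.06 log2 (SE 0.12, limma adjusted p = 0.000113), a 2.09-fold rise. Proximal tubule markers moved the opposite way, with a median of -3.60 log2 over 10 genes.

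Notch4, the receptor best known from endothelium, did not pass. Its values were 6.33, 6.19 and 6.09 in Control and 6.12, 6.09 and 6.04 in NICD1, so the NICD1 arrays lay at the lower edge of the Control range. The difference of -0.12 log2 had a 95% interval of -0.35 to 0.11 (limma adjusted p = 0.463). For this probe set, the interval leaves out changes as large as that of Notch2 in either direction. Another 4 probe sets list Notch4 together with Sympk and were not used for it. None of these 4 was called in a limma fit over all probe sets (0 at an unadjusted p under 0.05), with differences of 0.08 to 0.54 log2. The largest of these differences had a 95% interval of -0.06 to 1.15, which includes a rise as large as that of Notch2.

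Among the ligands, Jag1 was the 1 gene that rose, with the largest measured difference of the 10 genes. Jag1 encodes a ligand of the Jagged type, present on the signal-sending cell. It measured 6.38, 6.74 and 6.57 in Control and 10.66, 10.61 and 10.56 in NICD1. The NICD1 arrays had an SD of 0.05 log2 and lay at least 3.82 log2 above every Control array. The rise was 4.05 log2 (SE 0.11, limma adjusted p = 1.14e-07), or 16.5-fold, and placed Jag1 at rank 64 of 19937 genes by the size of the difference, with Notch1 at rank 101, Notch3 at rank 380 and Notch2 at rank 1809. The 95% interval of Jag1, 3.79 to 4.30, overlapped that of Notch1, 3.36 to 3.90, and a difference between these rises was not tested.

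Jag2, the other Jagged ligand, did not pass. It stood between percentiles 41.9 and 47.1 of the genes on the arrays, where RMA values understate a change. Jag2 measured 5.06, 4.93 and 5.07 in Control and 4.85, 5.21 and 4.96 in NICD1. The groups overlapped completely, with the lowest and the highest array both from NICD1. The difference was -0.01 log2, with a 95% interval of -0.28 to 0.25 (limma adjusted p = 0.952), and its sign turned when any 1 of 4 of the arrays was left out.

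Dll1, a Delta ligand, was the gene that fell. It measured 5.89, 5.72 and 5.70 in Control and 5.20, 5.18 and 5.27 in NICD1. The groups were apart by 0.43 log2 at their nearest, and the NICD1 values lay close together. The difference was -0.55 log2 (SE 0.10, limma adjusted p = 0.00223), a 1.46-fold fall. In NICD1, Dll1 stood between percentiles 46.8 and 47.6 of the genes on its array, where RMA values understate a change.

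Dll4, the Delta ligand of sprouting endothelium, did not pass. It measured 5.69, 5.64 and 5.72 in Control and 5.66, 5.17 and 5.58 in NICD1. NICD1 replicate 2 was low, and NICD1 replicate 1 lay within the Control range. The difference of -0.21 log2 had a 95% interval of -0.52 to 0.10 (limma adjusted p = 0.305), and was -0.06 without NICD1 replicate 2. Endothelial markers were lower beside it: of 10, 5 fell, 0 rose and 5 did not pass, with a median difference of -0.51 log2. Of the 5, Robo4 passed narrowly (-0.38, limma adjusted p = 0.0497), and its call was lost without any 1 array other than NICD1 replicate 2. Their summed linear signal ran from 1192 to 1318 in Control and was 932, 949 and 595 in NICD1 replicates 1 to 3. Tek and Kdr, receptors on endothelial cells, fell by 1.76 and 1.54 log2, while Pecam1 differed by -0.67 (limma adjusted p = 0.141) and Cdh5 by -0.04 (0.927). The array with the lowest endothelial signal, NICD1 replicate 3, was not the one lowest for Dll4, but it was the lowest of all 6 for Notch4, at 6.04. What these markers have to do with the Dll4 and Notch4 values was not tested.

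Dll3, a divergent Delta protein that does not activate receptors on neighbouring cells, lay low on every array. It measured 4.30, 3.83 and 3.77 in Control and 3.94, 3.96 and 3.97 in NICD1, between percentiles 24.7 and 33.0 of the genes on the arrays. All 3 NICD1 arrays lay inside the Control range. The difference was -0.01 log2, with a 95% interval of -0.33 to 0.32 (limma adjusted p = 0.986). No detection calls were given, so whether the transcript was detected at all was not tested.

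Dlk1, a Delta-like protein without the receptor-binding domain of the other ligands, did not pass. It measured 5.94, 5.78 and 5.80 in Control and 5.66, 5.99 and 6.14 in NICD1. The NICD1 arrays fell on both sides of the Control arrays. The difference was 0.09 log2, with a 95% interval of -0.21 to 0.40 (limma adjusted p = 0.687), and -0.03 after centring of the arrays.

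**Figure D2:**
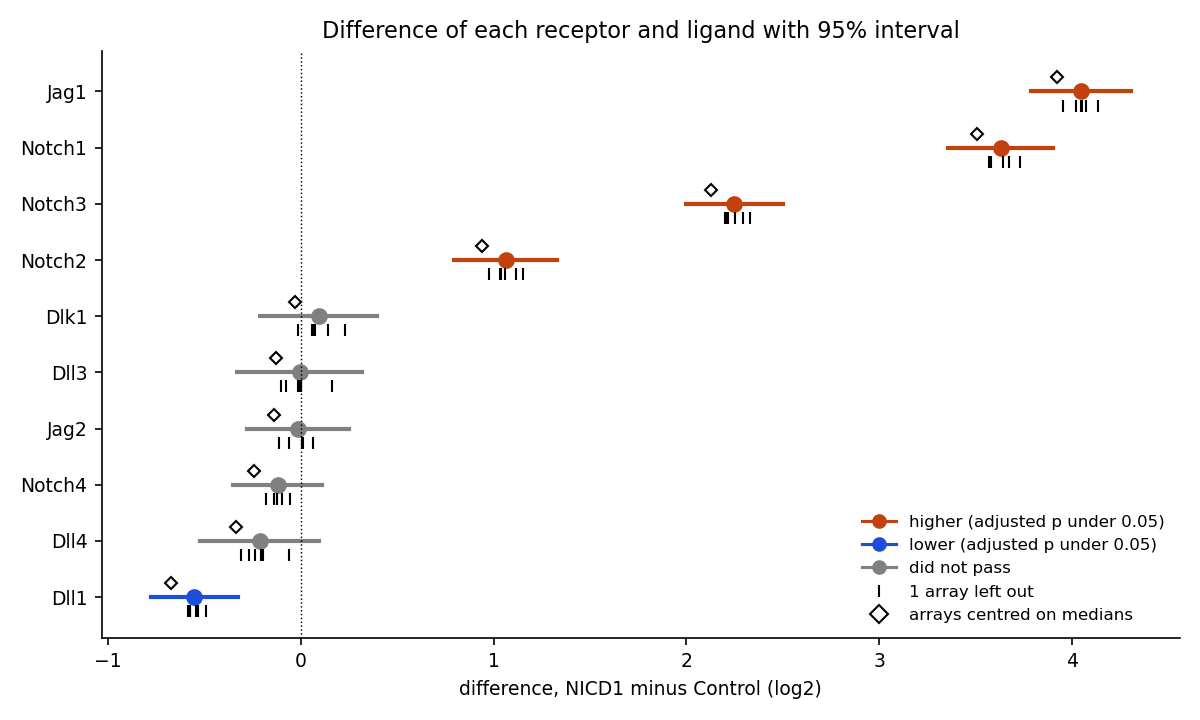
Difference of each gene between NICD1 and Control on the log2 scale (dot) with its 95% interval from limma (line), the 6 values with 1 array left out (ticks) and the value after centring arrays on their medians (diamond). Jag1, Notch1, Notch3 and Notch2 lie above 0 in every version and Dll1 below, while the 95% intervals of the other 5 include 0.

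Whether copies of a family changed unequally was asked with the log2 ratio of a pair on each array, which needs no comparison of the levels of different probes. All 6 pairs of receptors and 8 of 15 pairs of ligands had ratios that did not overlap between the groups. Each ratio is built from the single-gene values above, and pairs share genes, so these counts are not separate support for those differences. Of all pairs of the 19937 genes, 52.1% did not overlap, so the count for ligands is near this background. Without Notch1, whose value may hold transgene transcript, 3 of 3 receptor pairs did not overlap. The same limit holds for each Notch1 ratio given below. Over the 21 pairs, an exact two-sided permutation test over the 6 arrays cannot give less than 0.10, the value of each of those 14 pairs (0.15 after Benjamini-Hochberg adjustment over the 21), so no pair could pass a threshold of 0.05. The Notch1 to Notch3 ratio varied little within groups, with an SD of 0.02 log2 in Control and 0.04 in NICD1, and it rose by 1.38 log2 (SE 0.025). The Notch1 to Notch2 ratio changed by 2.57 (SE 0.14) and the Notch2 to Notch3 ratio by -1.19 (SE 0.13). Against Notch4, the ratios of Notch1, Notch3 and Notch2 rose by 3.75, 2.37 and 1.18 log2. Among ligands, the ratio of Jag1 to each of the other 5 rose by 3.95 to 4.60 log2, the most against Dll1. The ratio of Jag2 to Dll1 rose by 0.54 (SE 0.13), and those of Dll1 to Dll3 and Dlk1 changed by -0.55 and -0.64. The ratio of Dll1 to Dll4 overlapped between groups (-0.34, SE 0.15, exact p = 0.20), so these 2 Delta ligands were not separated here. The remaining 6 pairs, all among Jag2, Dll3, Dll4 and Dlk1, overlapped as well, with changes of -0.30 to 0.21.

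**Figure D3:**
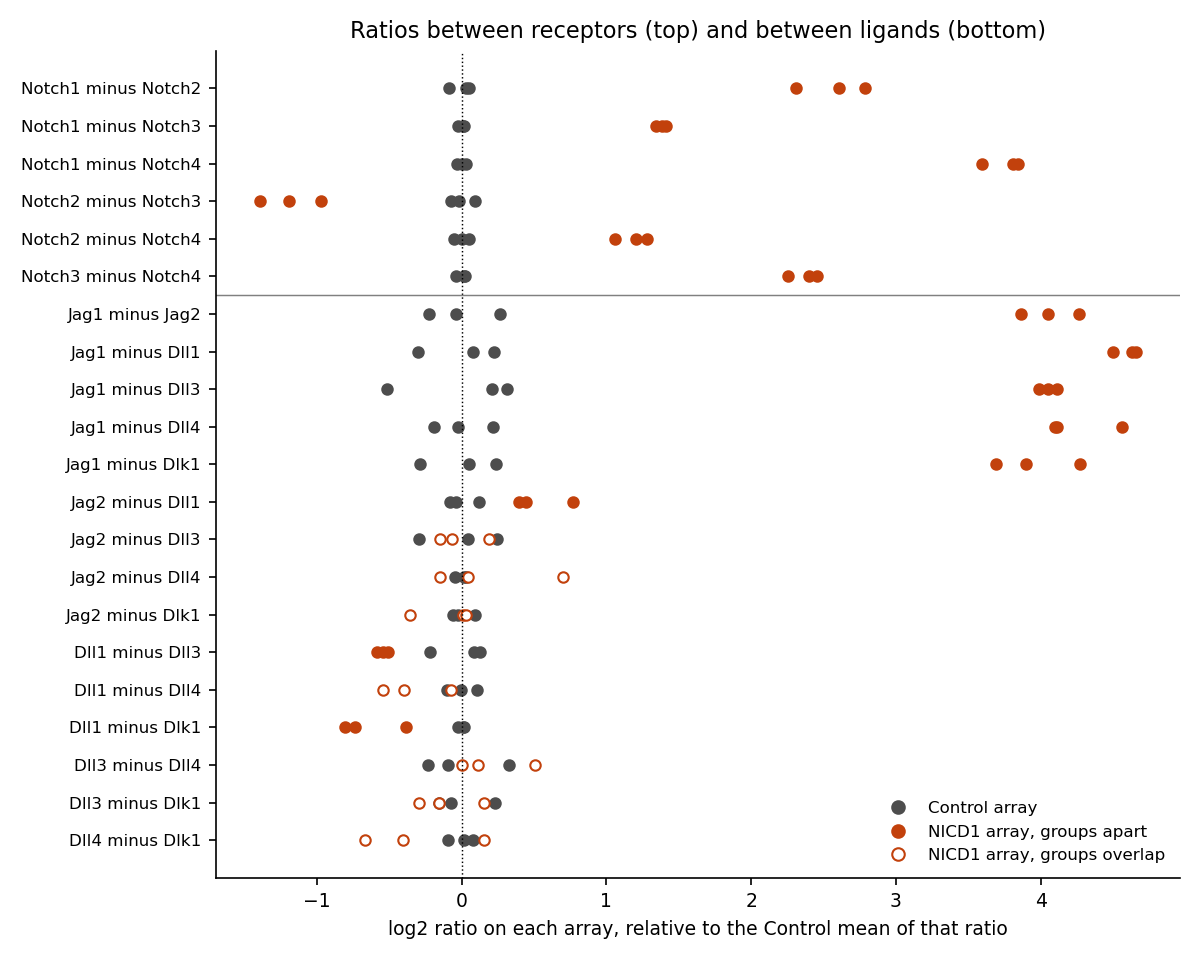
Log2 ratio of each pair of receptors (above the line) and of ligands (below it) on every array, set relative to the Control mean of that pair. All 6 receptor pairs and the 5 pairs with Jag1 stand apart in NICD1, while pairs among Jag2, Dll3, Dll4 and Dlk1 overlap (open circles).

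The proximal promoters of the 4 genes that rose were examined for the site of RBPJ, through which the intracellular domain acts. RefSeq windows of assembly GRCm38.p6, from 250 bases before to 50 after a transcription start, were matched by symbol for all 10 genes, with 11 windows because Dll1 has 2 starts. The 6-letter core TGGGAA, or TTCCCA on the other strand, was in 0 of the 10 genes, and so was the longer GTGGGAA, which contains it. In the whole table, 28.3% of 27025 genes held the first and 7.25% the second. The inner run GGGAA, part of both motifs and searched after the first result was seen, was in 6 genes, Notch2, Notch4, Jag1, Dll1, Dll3 and Dlk1, against 65.5% of all genes. The windows of the 4 risen genes are shown 5′ to 3′, with GGGAA or TTCCC in capitals. That of the target gene Hey2 is shown last as an example with the full motif, chosen after its matches were seen, with capitals for GTGGGAA or TTCCCAC.
Jag1, chr2:137116471-137116770, minus strand: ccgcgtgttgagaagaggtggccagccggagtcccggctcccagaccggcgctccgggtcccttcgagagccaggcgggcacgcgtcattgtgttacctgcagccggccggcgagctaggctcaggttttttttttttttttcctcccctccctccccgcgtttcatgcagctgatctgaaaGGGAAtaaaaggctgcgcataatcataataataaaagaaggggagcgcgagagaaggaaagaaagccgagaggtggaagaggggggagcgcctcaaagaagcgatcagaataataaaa
Notch1, chr2:26503773-26504072, minus strand: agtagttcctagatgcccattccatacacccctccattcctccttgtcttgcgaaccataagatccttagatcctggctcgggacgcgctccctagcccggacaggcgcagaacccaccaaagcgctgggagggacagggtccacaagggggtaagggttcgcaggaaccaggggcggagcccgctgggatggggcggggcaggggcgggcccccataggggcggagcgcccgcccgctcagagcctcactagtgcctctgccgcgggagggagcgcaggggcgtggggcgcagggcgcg
Notch2, chr3:98013288-98013587, plus strand: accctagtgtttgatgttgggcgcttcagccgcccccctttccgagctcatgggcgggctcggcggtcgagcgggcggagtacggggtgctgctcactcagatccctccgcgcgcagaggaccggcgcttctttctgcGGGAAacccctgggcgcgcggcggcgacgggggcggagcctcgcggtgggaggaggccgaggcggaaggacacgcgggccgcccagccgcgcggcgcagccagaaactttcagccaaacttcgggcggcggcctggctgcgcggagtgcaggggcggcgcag
Notch3, chr17:32166841-32167140, minus strand: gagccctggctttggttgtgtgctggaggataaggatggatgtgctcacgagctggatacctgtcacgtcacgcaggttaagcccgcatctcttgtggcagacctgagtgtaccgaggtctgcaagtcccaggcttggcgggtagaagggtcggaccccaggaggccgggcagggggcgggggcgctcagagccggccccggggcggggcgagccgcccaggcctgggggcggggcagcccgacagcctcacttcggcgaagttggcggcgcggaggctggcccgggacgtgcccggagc
Hey2, chr10:30842734-30843033, minus strand: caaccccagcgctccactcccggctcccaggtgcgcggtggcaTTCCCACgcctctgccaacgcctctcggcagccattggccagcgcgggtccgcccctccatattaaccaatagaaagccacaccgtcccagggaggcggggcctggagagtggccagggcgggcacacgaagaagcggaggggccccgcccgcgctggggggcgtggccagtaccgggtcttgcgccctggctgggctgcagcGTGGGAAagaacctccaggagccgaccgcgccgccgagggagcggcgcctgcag
Jag1 and Notch2 each show 1 inner run, Notch1 and Notch3 none. Of 15 genes listed as targets, 7 had a window, and 3 of these, Hey2, Hes5 and Hes7, held GTGGGAA. Hey2 rose by 2.20 log2 while Hes5 and Hes7 did not pass, and the window of Nrarp, which rose by 5.66, held none. The windows of the 4 risen genes had 22 to 41 CG pairs (over all windows, median 7, 75th percentile 20). Their GC content was 55.7% to 73.0% (over all windows, median 52.7%, 75th percentile 61.7%). Windows of the members that did not rise held from 5 (Notch4) to 63 (Jag2) CG pairs. Their GC content ran from 52.0% (Dll3) to 86.0% (Jag2), so neither trait is particular to the risen genes. A match is a run of letters and not a measured binding site, and enhancers further away were not examined.

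Beside the receptors and ligands, the genes that process them, pass on the signal or respond to it were counted from lists. Among 15 target genes the test called 10 higher and 1 lower, beside 17.8% and 14.9% of all genes, and their median was 1.56 log2. The 6 with the lowest p were Nrarp, a feedback inhibitor (5.66 log2), Heyl (4.0), Myc (2.20), Ccnd1, a cyclin (1.97), Hes1 (1.73) and Hey1 (1.56). Hes5, Snai1 and Hes7 differed by 0.22, 0.10 and 0.07 (limma adjusted p = 0.232, 0.617 and 0.733), and the gene that fell was Snai2 (-0.45). Of the 15, Nrarp had a larger difference than Jag1, a gap that was not tested.

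In the nuclear complex 7 of 13 measured genes rose and 1 fell, beside 17.8% and 14.9% of all genes, and the median was 0.43 log2. The coactivators Maml3 and Maml2 rose by 1.28 and 1.05, RBPJ itself (Rbpj) by 0.86, and Fbxw7, which marks the intracellular domain for destruction, by 0.65. Kdm5a and Spen, repressors that work with RBPJ, rose by 0.62 and 0.50, and Kat2b, an acetyltransferase, fell by 0.38. The call of Spen was lost without Control replicate 2 (0.44) or Control replicate 3 (0.43), and that of Kat2b without any 1 Control array or NICD1 replicate 3.

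For processing and trafficking of receptors and ligands, 12 of 29 measured genes rose, 2 fell and 15 were not called (median 0.20 log2), beside 17.8% higher and 14.9% lower over all genes. Neurl1b, a ubiquitin ligase that acts on ligands, rose by 1.10, and Dtx3l, Dtx4, Nedd4, Lfng and Epn2 rose by 1.47, 1.26, 0.93, 0.77 and 0.61. Lfng is a fringe glycosyltransferase that alters which ligands a receptor answers to, and Epn2 is an adaptor of endocytosis. Rfng and Aph1b fell by 0.60 and 0.41, and the call of Rfng was lost without Control replicate 1, Control replicate 2 or NICD1 replicate 1. After centring, the list had 8 higher and 5 lower genes in place of 12 and 2, and it had 8 higher without Control replicate 2.

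Of 10 other proteins described as Notch ligands, the test called 2 higher and 0 lower (median 0.22 log2). The share of higher genes is near the 17.8% over all genes. The 2 were the matrix proteins Ccn2 (1.04 log2) and Postn (0.77). Neither call was steady: 0 of the 10 passed without Control replicate 2 or NICD1 replicate 2, 1 without NICD1 replicate 1 and 4 without Control replicate 1. Of 8 fibroblast markers set beside them, the 4 collagen genes rose, and the summed linear signal of all 8 was 704 to 867 in Control and 1935 to 2965 in NICD1. The other 4, Dcn, Lum, Fbln1 and Pdgfra, differed by -0.77, -0.30, -0.20 and -0.07 and did not pass (limma adjusted p = 0.231, 0.118, 0.341 and 0.839), with sums of 314 to 354 in Control and 155 to 350 in NICD1. The part of these markers in the rises was not tested.

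**Figure D4:**
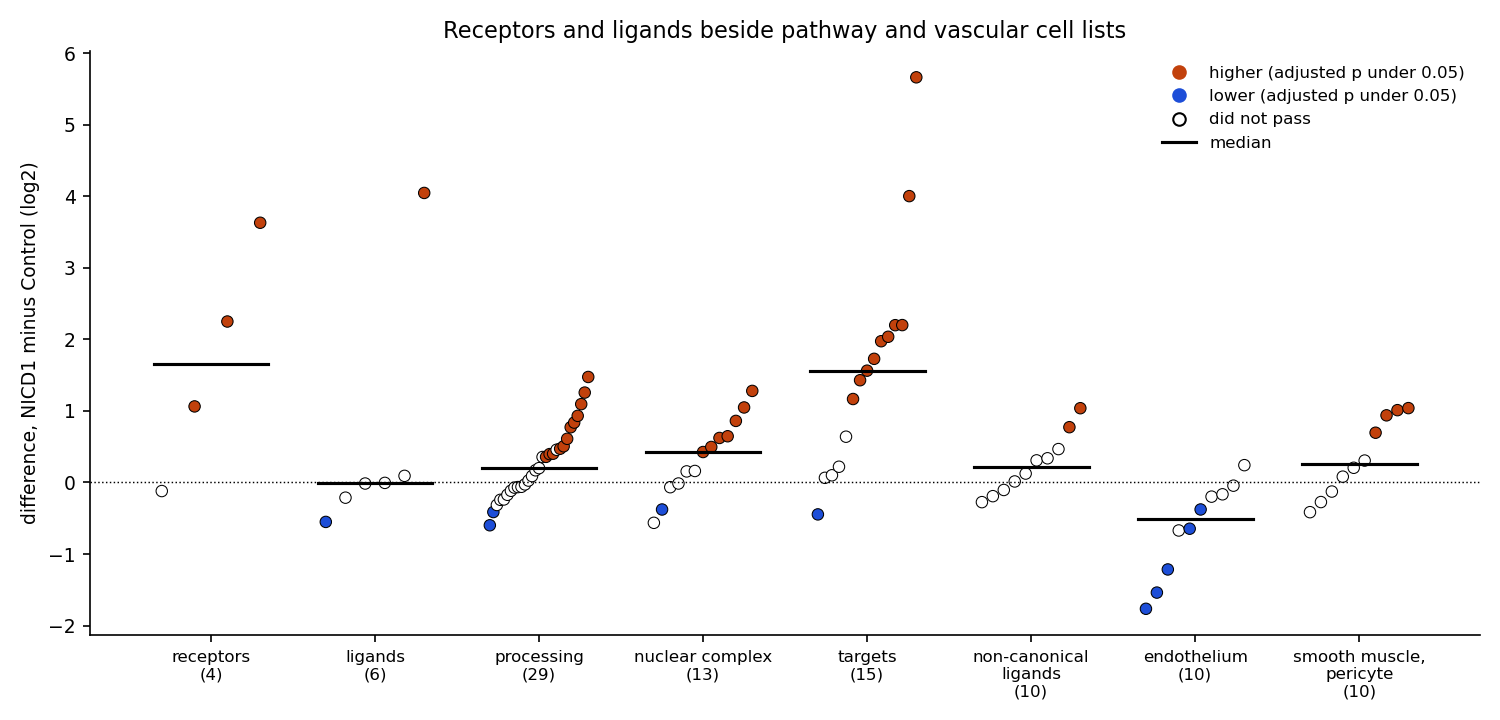
Difference between NICD1 and Control (log2) for every measured gene of the receptors, ligands, 4 pathway lists and 2 vascular cell lists, sorted within each list; the number of genes stands under each name, filled circles passed the test and bars mark medians. Targets and receptors have medians of 1.56 and 1.66 (receptors 1.06 without Notch1), while ligands centre near 0 with Jag1 alone at 4.05.

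The genes with the profiles nearest to the risen members were found by the root mean square distance over the 6 arrays, after each profile was set to its own Control mean. Nearest to Notch1 were Mcm6, a subunit of the replication helicase (0.20 log2), the cell cycle kinase Cdk6 (0.23) and Clec18a (0.24). Nearest to Jag1 were Gabrp, a GABA receptor subunit (0.24), the chloride channel Ano1 (0.27) and Fgb, a fibrinogen chain (0.30). Nearest to Notch3 were Cyp39a1, an oxysterol hydroxylase (0.07), the adaptor gene Stap2 (0.09) and Litaf (0.11). With 2 groups of 3 arrays, this likeness rests mainly on the size of the group difference.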

How the data were processed

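Per the labels' protocols, total RNA from whole kidney (6 µg per labelling) was prepared with TRIzol, labelled with biotin, and the Affymetrix raw files were normalized in GeneSpring with its RMA algorithm. The deposited values are log2 expression per probe set, 1.40 to 13.67; software version, detection calls and scan dates are not given in the sources used here. RMA understates differences of dim probe sets. Of 34760 probe sets, 6573 in the control range were left out. Symbols came from the platform annotation, which can be old. A linear model (limma 3.58.1, R 4.3.3) set NICD1 against Control over 19937 genes, two-sided, with no replicate block. The receptors and ligands, the lists, motifs and tests were chosen with earlier results of these data known. The text names all 10 receptors and ligands, up to 6 called genes of each pathway list by p, up to 3 uncalled targets with the highest p, the first 4 of a marker list, and 3 nearest profiles each for Notch1, Jag1 and Notch3. Mcam, Pdgfrb, Robo4, the fibroblast markers, Hey2, Kat2b, Snai2, Rfng and Aph1b were named after their values were seen. Log2 scaling, probe choice, filters, variance model, weights, thresholds, the block and each array were varied. The procedure was tested on simulated data, where it recovered 19.7% of changes of 0.5 log2, 80.6% of 1 log2 and 95.5% of 2 log2. Only 66 or 67 of 19937 genes were changed there at each size. In the real data 32.7% of genes were called, so recovery may differ. A planned comparison of protein sequences was not made.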

Additional observations from a re-analysis of the deposited data

How the results depend on the processing

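Over 17 alternatives, 6 of which leave out 1 array, Jag1, Notch1, Notch2 and Notch3 kept their direction and passed in every one. Their differences ranged over 3.92 to 4.22, 3.51 to 3.86, 0.94 to 1.22 and 2.13 to 2.33 log2. Not all alternatives could change these differences. Each of the 10 genes has 1 single-symbol probe set, and the alternatives of probe choice left its difference as it was. Thresholds, the filter, the variance model and the block bear only on p-values and calls. The ranges come from the normalizations, the array weights and the arrays left out. Dll1 ranged from -0.67 to -0.49 (limma adjusted p from 0.000556 to 0.0105) and was no longer counted with a minimum difference of 1 log2, which left 0 genes lower among the 10. That minimum left 1984 of 6529 genes called over all genes tested, 927 higher and 1057 lower. Notch4, Jag2, Dll3, Dll4 and Dlk1 passed in none of the alternatives in which they were tested. The sign of these small differences turned in places. Jag2, NICD1 minus Control, was 0.076 with array weights and -0.11 to 0.064 with 1 array left out. Dll3, NICD1 minus Control, was 0.055 with array weights and -0.10 to 0.16 with 1 array left out. Dlk1, NICD1 minus Control, was -0.030 after centring and -0.013 to 0.23 with 1 array left out. Hes7, NICD1 minus Control, was -0.058 after centring and -0.011 to 0.13 with 1 array left out. Snai1, NICD1 minus Control, was -0.018 under quantile normalization and -0.022 after centring. Dll3 was not tested where the dimmest 40% of genes were left out.

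Centring raised the lower genes of the processing list from 2 to 5, of the nuclear list from 1 to 2 (2 under quantile normalization too) and of the other ligands from 0 to 1. Leaving out each array in turn, these lists had 1 to 2, 0 to 1 and 0 lower genes, 0 to 4 of the other ligands were higher, and the genes called over all genes tested were 5275 to 6278. The cause of these changes was not tested. The promoter count went from 0 to 6 with the shorter GGGAA.

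Same-numbered samples did not deviate together over all genes (correlations of -0.07, -0.01 and -0.07). Differently numbered samples were not set beside them, so whether same-numbered samples share a litter or a processing run was not tested. With the replicate number as a block, 4 of the 10 genes were higher and 1 lower, and the genes called over all genes tested were 5981. Array number limits precision: 3 per group.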

Other observations

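Genes of a few protein families around the receptors were set side by side after their values were seen. Of the 3 fringe genes, whose enzymes add sugars to the receptor, Lfng rose (0.77 log2, limma adjusted p = 0.00215), Rfng fell (-0.60, adjusted p = 0.0169, lost without any 1 of 3 arrays) and Mfng differed by 0.03 (adjusted p = 0.905); a difference between them was not tested. Among subunits of gamma-secretase, which makes the final cut, Ncstn rose by 0.47 and Aph1b fell by 0.41 log2, and the call of Ncstn was lost after centring and without Control replicate 1 or 2 (limma adjusted p = 0.0629, 0.0569 and 0.0536). Psen2, Psenen and Aph1a differed by -0.07, -0.03 and -0.17 (limma adjusted p = 0.665, 0.889 and 0.228). Aph1c stood at 6.69 on NICD1 replicate 3, against 5.52 to 5.77 on the other 5 arrays. Both proteases of the preceding cut, Adam10 and Adam17, rose, by 0.51 and 0.40 log2 (adjusted p = 0.0105 and 0.0230). The call of Adam17 was lost after centring (0.28 log2, limma adjusted p = 0.104), with the replicate block (0.0502) and without Control replicate 1 or 2 or NICD1 replicate 1 or 2 (0.0546 to 0.0729), while that of Adam10 was kept in these settings.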
